A study of Rattus norvegicus with 18 samples.

Results

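The oligoadenylate synthetases (OAS) of the rat were followed in kidney cortical collecting ducts after an injection of lipopolysaccharide (LPS), the endotoxin of the bacterial outer membrane. The genes were chosen by symbol: Oas1a, Oas1b, Oas1g, Oas2, Oas3, Oasl and Oasl2. Of these 7 names, 6 had a row among the 32883 genes of the expression table, and the expression of Oas1b was not analysed here. 4 of the 6, Oas1a, Oas1g, Oasl and Oasl2, had a mean of at least 1 TPM (a length-corrected share of all transcripts in a library) over all libraries and entered the test, as did 12393 genes in all. Oas2 and Oas3 fell below that filter and are given by their values only. Each of the 4 tested genes also had a mean of at least 1 TPM in the control group alone, so none of them passed the filter only through the LPS group.

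Ducts were microdissected from kidneys of male Sprague-Dawley rats 3 h after an intraperitoneal injection of LPS or of Vehicle, which was normal saline, and the study asked how the duct transcriptome changed at that early time. There were 3 numbered samples in each group, described as paired by number, and 3 RNA-seq libraries from each numbered sample, 18 libraries in all. The numbered sample was treated as the replicate, and its libraries were averaged. The labels give no dose of LPS and no age, and do not say how many rats stand behind a numbered sample, so each p-value reflects only how far these samples spread, which may be technical.

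OAS enzymes are interferon-inducible sensors of double-stranded RNA. When they bind it they join ATP into short chains of adenylate in an unusual linkage, called 2-5A, a messenger of antiviral defence inside the cell. The OAS-like proteins Oasl and Oasl2 carry ubiquitin-like domains, and rodents hold a cluster of Oas1 copies. LPS is sensed by Toll-like receptor 4, which can drive type I interferon, and interferon receptors signal through factors that include Stat2 and Irf9 to a promoter element called the interferon-stimulated response element (ISRE).

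The promoter stretches that hold ISRE letters are shown as a description of sequence, and their part in the changes with LPS was not tested. RefSeq (GRCr8) gave a promoter for 5 of the 7 named genes, Oas1a, Oas1b, Oas3, Oasl and Oasl2. The 250 bases before each start were searched on both strands for GAAANNGAAA, the ISRE core. Capitals mark the match, and each line reads 5′ to 3′ along the strand of the gene.
Oas1a, chr12:41330418-41330447, plus strand: ctctcggGAAATGGAAACTGAAAatcttgt
Oas1b, chr12:41395889-41395918, minus strand: ttcccggGAAATGGAAACTGAAAaccctat
Oas3, chr12:41439629-41439654, plus strand: agagaggaGAAAACGAAAgtgaatga
Oasl2, chr12:47383319-47383344, minus strand: agctttggTTTCAGTTTCcaggcttg
The Oas1a and Oas1b stretches each hold 2 overlapping matches, which end 26 and 44 bases before the start. The Oas3 match lies 95 to 86 bases before the start. The Oasl2 match lies 151 to 142 bases before the start and is on the opposite strand, so its letters appear here as the reverse complement. In all, 4 of the 5 member promoters held the core, against 3.41% of 33469 rat promoters of the same length. Of the 4 tested members, Oas1a and Oasl2 held it, Oasl did not and Oas1g had no promoter entry. Oas1b expression was not analysed here and Oas3 fell below the filter. The letters in capitals are the same for Oas1a and Oas1b, so these matches are not independent.

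Oasl, the member with the highest level after LPS, had no match to the ISRE core in that window. Its promoter held a kappaB motif, the element read by NF-kappaB, which 3.54% of the promoters held. The match is shown in capitals, is on the opposite strand and lies 165 to 156 bases before the start.
Oasl, chr12:47356440-47356465, minus strand: tccaaggtGGGGACCCCCatagagtc
The core of the GAS element, an element of interferon gamma responses, reads TTCNNNGAA and was found among the member promoters in those of Oas1a and Oas1b, against 7.67% of all promoters. These matches describe letters in a fixed window and say nothing about binding in the ducts.

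The ducts carried the markers of their label. The summed TPM of 7 principal cell genes, including the water channel Aqp2, was 14614 to 16535 in the Vehicle samples and 8522 to 11970 in the LPS samples, and 5 of the 7 fell with LPS. Libraries of a numbered sample correlated at 0.949 to 0.979 across genes. A few libraries stood apart. Vehicle 1 held distal and connecting tubule markers at a sum of 4975 TPM, against 28.2 to 215 in the other samples. Calb1 alone made up 4943 TPM of it. Slc8a1 was also highest in Vehicle 1, at 29.5 TPM, while Slc12a3, Trpm6 and Pvalb were not. Within Vehicle 1 the sum was highest in library 1, at 9756 TPM. In libraries 2 and 3 of Vehicle 1 the interferon-response factor Irf1 stood at 117.35 and 196.55 TPM, against 15.18 to 28.44 in the other Vehicle libraries. LPS 3 library 3 held neutrophil markers at a sum of 221 TPM, against at most 14.7 in any other library. LPS 2 library 1 held markers of the thick ascending limb at a sum of 404 TPM, against at most 78.8 in any other library. Over all tested genes 889 rose with LPS (7.17%) and 2757 fell (22.2%), and the median log2 change was -0.38. Median-ratio scaling moved that median to -0.01 and left 1309 calls, 851 of them higher, and quantile normalization moved it to -0.12 and left 1388 calls, 809 of them higher. The samples were bulk tissue, so a change in the number of cells of a type and a change in RNA per cell cannot be told apart.

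All 4 tested members rose with LPS, against the 7.17% of tested genes that did. Oasl rose most, from 2.52 ± 1.02 TPM to 530 ± 212 TPM (mean ± SD, n = 3 numbered samples each). Oasl2, Oas1a and Oas1g rose by 24.6-fold to 39.3-fold on the ratio of mean TPM. Log2 changes below are of log2(TPM + 1), a scale that shrinks the change of a gene near 0 with Vehicle, and adjusted p-values come from limma with the sample number as a block. The calls of all 4 were lost without the samples numbered 3 (limma adjusted p 0.196 to 0.215), with the median over libraries (0.0545 to 0.0656) and with no filter (0.209 to 0.263), settings in which no gene of the table was called. No LPS library of these 4 genes was as low as any Vehicle library. By sample means, 9.82% of tested genes had every LPS sample above every Vehicle sample, and the share by library was not computed. Among all tested genes ranked by log2 change, Oasl stood at place 11, Oasl2 at 55, Oas1a at 56 and Oas1g at 64.

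**Figure D1:**
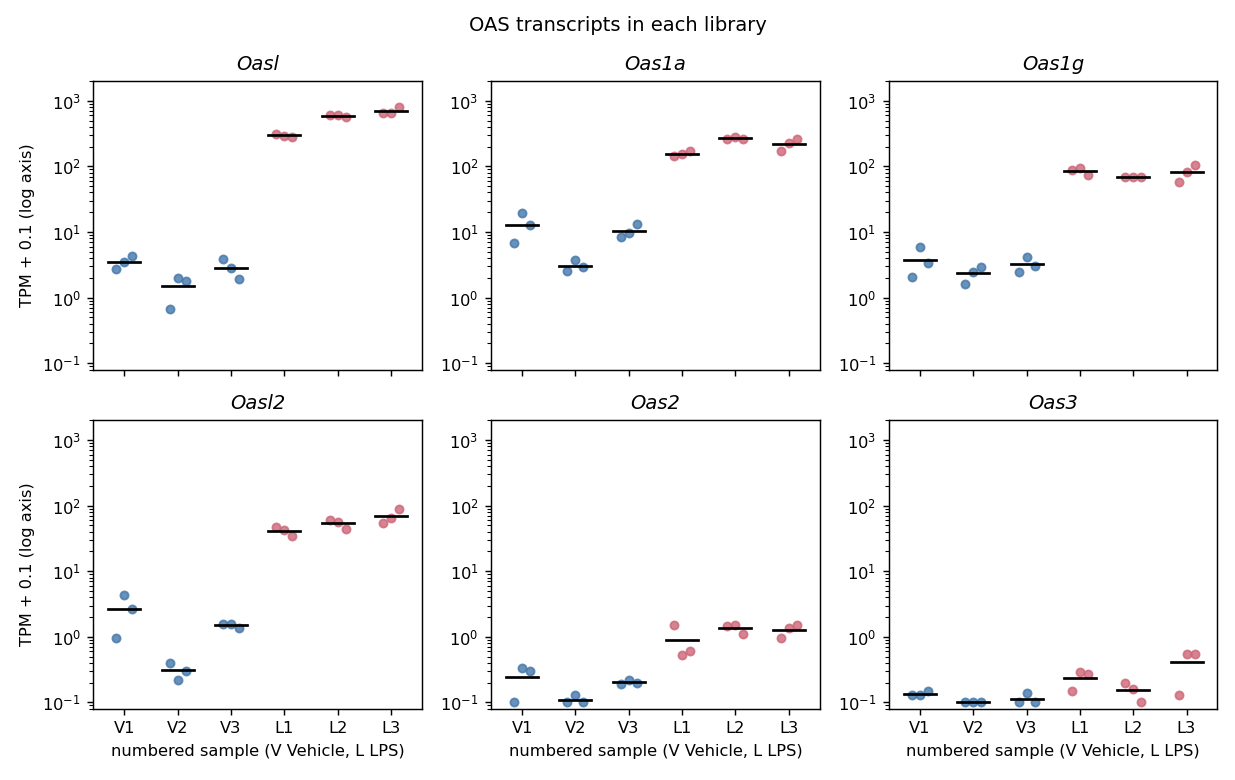
TPM of each oligoadenylate synthetase in every library, on a log axis after adding 0.1, for the numbered Vehicle samples (V1 to V3) and LPS samples (L1 to L3); points are libraries and bars are sample means. For Oasl, Oas1a, Oas1g and Oasl2 every LPS point lies above every Vehicle point, and Oas2 and Oas3 stay at or below 1.44 TPM in every library.

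Oasl (ENSRNOG00000001187) encodes an OAS-like protein with ubiquitin-like repeats at its end. Its level was 3.39, 1.40 and 2.77 TPM in Vehicle samples 1, 2 and 3 and 296, 589 and 706 TPM in LPS samples 1, 2 and 3. The LPS samples lay far above the Vehicle samples, and the lowest LPS library was 68.6 times the highest Vehicle library. The ratio of the means was 210. Its log2 change was 7.22 (SE 0.351, 95% interval 6.39 to 8.05, limma adjusted p = 0.000209). The change within pairs was 6.09, 7.99 and 7.58, so the pair numbered 1 showed the smallest rise.

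Oasl2 (ENSRNOG00000028814), the second OAS-like gene, lies beside Oasl in the RefSeq gene order. Its level was 2.57, 0.207 and 1.39 TPM in the Vehicle samples and 41.4, 53.5 and 69.1 TPM in the LPS samples. The groups did not overlap, but Vehicle 2 was several times lower than the other Vehicle samples. The mean went from 1.39 ± 1.18 to 54.7 ± 13.9 TPM, a ratio of 39.3. The log2 change was 4.67 (SE 0.342, 95% interval 3.86 to 5.48, limma adjusted p = 0.000578).

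Oas1a (ENSRNOG00000001369) is one of the Oas1 copies. Oas1 enzymes make 2-5A, although not every rodent copy is active. Oas1a had the highest Vehicle level of the members, at 12.8, 2.98 and 10.3 TPM in samples 1, 2 and 3. In the LPS samples it stood at 156, 268 and 220 TPM. The mean rose from 8.72 ± 5.13 to 215 ± 56.1 TPM, 24.6-fold, and the lowest LPS library was 7.68 times the highest Vehicle library. The log2 change was 4.66 (SE 0.430, 95% interval 3.65 to 5.68, limma adjusted p = 0.00143). The log2 change within pairs differed widely, at 3.61, 6.09 and 4.29.

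Oas1g (ENSRNOG00000047076), another Oas1 copy, stood at 3.69, 2.23 and 3.11 TPM in the Vehicle samples. In the LPS samples it stood at 85.5, 68.6 and 80.8 TPM, so its samples were closely grouped on both sides. The mean rose from 3.01 ± 0.735 to 78.3 ± 8.70 TPM, 26.0-fold. The log2 change was 4.34 (SE 0.184, 95% interval 3.91 to 4.78, limma adjusted p = 0.000122), and the log2 change within pairs was 4.28, 4.45 and 4.30. Its standard error was the smallest of the 4 and its pairs were the most alike. As a close copy of other Oas1 genes, its values are uncertain where reads fit several copies.

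Oas2 (ENSRNOG00000049282) and Oas3 (ENSRNOG00000059207) encode the larger OAS enzymes, built from repeated OAS units. Oas2 stood at 0.143, 0.010 and 0.103 TPM in the Vehicle samples and at 0.790, 1.25 and 1.17 TPM in the LPS samples. Every LPS library of Oas2 was above every Vehicle library, although 3 Vehicle libraries were listed at 0. With no filter on low values its log2 change was 0.91 (SE 0.154), with a limma adjusted p of 0.263. Oas3 stood at 0.0367, 0 and 0.0133 TPM in the Vehicle samples and at 0.137, 0.0533 and 0.310 TPM in the LPS samples. Its sample means did not overlap, but its libraries did, with 5 Vehicle libraries and 1 LPS library listed at 0.

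After LPS the mean levels, in TPM and so per transcript length, ran from Oasl through Oas1a, Oas1g, Oasl2 and Oas2 to Oas3. Among neighbours in that order, the sample ranges overlapped only for Oas1g and Oasl2, at 68.6 to 85.5 and 41.4 to 69.1 TPM. In the Vehicle group the order was Oas1a, Oas1g, Oasl, Oasl2, Oas2 and Oas3. There the ranges of neighbours overlapped for every pair other than Oasl2 and Oas2. By mean level Oasl thus came after Oas1a and Oas1g with Vehicle, where its range overlapped theirs, and before both with LPS, where it did not.

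5 further rows carry Oas1 symbols. Oas1f (ENSRNOG00000033220) stood at 5.11, 1.69 and 8.94 TPM in the Vehicle samples and at 163, 284 and 239 TPM in the LPS samples. It rose with a log2 change of 5.40 (SE 0.417, limma adjusted p = 0.000692). Its LPS samples followed the order of Oas1a, lowest in sample 1 and highest in sample 2, and its RefSeq promoter held none of the 3 motifs. Oas1i (ENSRNOG00000037744) stood at 1.90, 0.507 and 3.21 TPM and at 5.60, 14.2 and 18.4 TPM. Its log2 change was 1.85 (SE 0.564, limma adjusted p = 0.0477), but it was called in only 3 of 17 alternative analyses. The limma adjusted p was 0.0555 without LPS 3 library 3 and 0.0938 without Vehicle 1 libraries 2 and 3. The RefSeq promoter of Oas1i held 2 overlapping ISRE matches, 36 to 21 bases before the start. Oas1d, Oas1e and Oas1h stayed at or below 0.47 TPM in every library of both groups.

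The Oas1 rows belong to close copies, and the values of a single copy are uncertain where reads fit several. Oas1i was listed at 0 in 5 libraries, 3 Vehicle and 2 LPS, beside values up to 31.95 TPM in other LPS libraries. Oas1g and Oas1i were listed at one and the same value in 3 libraries. RefSeq gives Oas1g as a synonym of Oas1a, while the table holds a row for each. The 6 members together stood at 22.7, 6.82 and 17.7 TPM in the Vehicle samples and at 580, 981 and 1078 TPM in the LPS samples. All 11 Oas rows together went from 23.0 ± 12.0 to 1121 ± 324 TPM, a ratio of 48.7.

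The make-up of that sum differed between the groups. Oasl held 12.0 ± 3.11% of the summed Oas TPM in the Vehicle samples and 46.2 ± 6.68% in the LPS samples, with no overlap between samples. Oas1a held 36.7 ± 5.63% in the Vehicle samples and 19.4 ± 2.55% in the LPS samples, also without overlap. Oas1f held 21.8 ± 6.86% and 20.6 ± 2.38%, and its sample ranges overlapped. Oas1g held 24.5% in Vehicle 2 and 10.3% to 12.4% in the other Vehicle samples, against 5.37% to 11.4% with LPS. No test was made on these shares, and with 3 samples against 3 an exact permutation test could not give a two-sided p below 0.1.

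**Figure D2:**
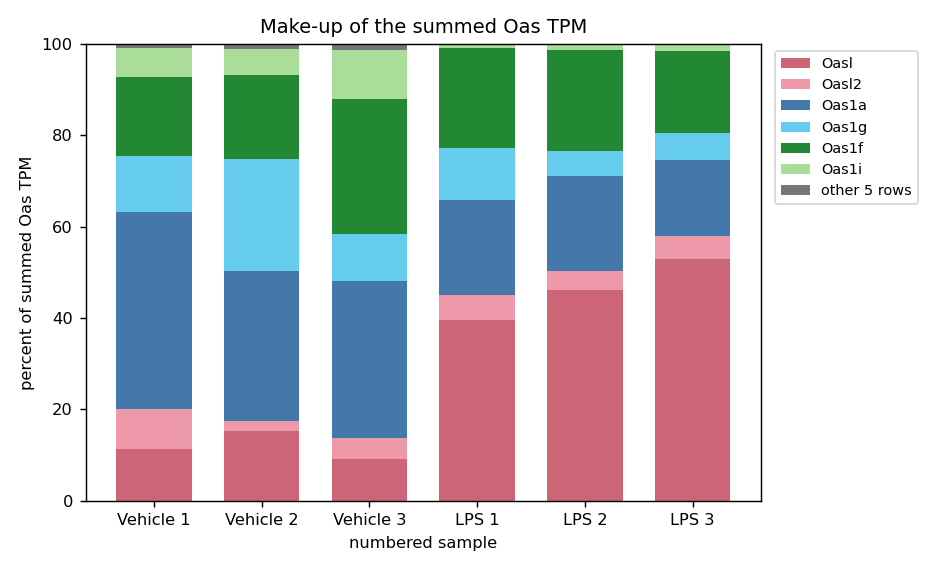
Share of the summed Oas TPM held by each row, in percent, for each numbered sample; the grey segment sums the other 5 rows, Oas2, Oas3, Oas1d, Oas1e and Oas1h. The Oasl segment is 9.19% to 15.3% in the Vehicle samples and 39.5% to 52.9% in the LPS samples.

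Vehicle 2 was the lowest Vehicle sample for all 6 members, where 46.1% of tested genes had their lowest Vehicle value in that sample. LPS 1 was the lowest LPS sample for Oas1a, Oasl, Oasl2 and Oas2, where 25.9% of tested genes were lowest in LPS 1. Relative to the LPS mean, LPS 1 stood at 0.557 for Oasl, 0.727 for Oas1a and 0.757 for Oasl2. Oas1g went the other way, with 1.09 times the LPS mean in LPS 1, its highest LPS sample. In the LPS 1 libraries Oas1g stood at 87.39, 94.11 and 75.01 TPM and its close copy Oas1i at 0, 0 and 16.81 TPM. The part of reads shared between copies in this order of Oas1g was not tested. LPS 1 was also the LPS sample whose libraries correlated best with the Vehicle libraries across genes, at a mean of 0.923 against 0.862 and 0.866 for LPS 2 and LPS 3.

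**Figure D3:**
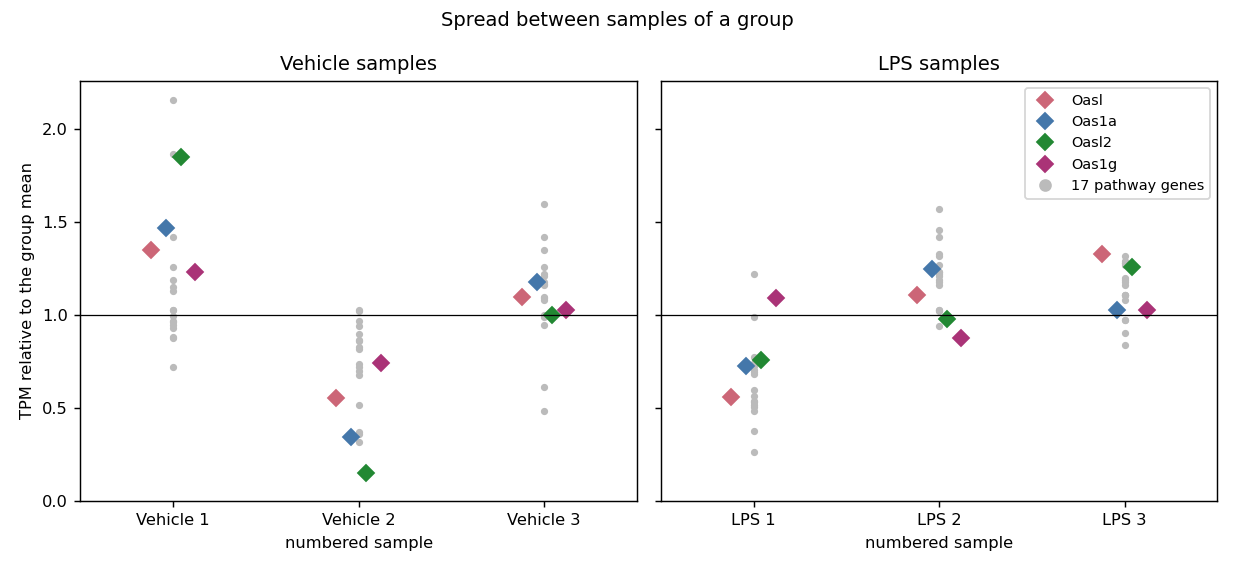
TPM of each numbered sample divided by the mean of its group, for the 4 tested members (diamonds) and the 17 pathway genes that rose (grey points), with Vehicle samples on the left and LPS samples on the right. In LPS 1 Oasl lies at 0.557 and Oas1g at 1.09, and in Vehicle 2 all 4 members lie below 1, from 0.149 for Oasl2 to 0.741 for Oas1g.

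The spread also differed in where it arose. For Oasl in the LPS group the SD of log2(TPM + 1) was 0.660 between numbered samples and 0.105 between libraries of a sample. For Oas1g in the LPS group the order was reversed, with 0.155 between samples and 0.256 within them. Over the 9 LPS libraries, as a description with libraries of a sample sharing their source, Pearson's r of Oasl was 0.827 with Oasl2 and 0.783 with Oas1a. Oas1g had an r of -0.178 with Oas1a, -0.225 with Oasl and 0.275 with Oasl2 over the same 9 libraries. The part of reads shared with close copies such as Oas1i in these Oas1g values was not tested. Across the 9 Vehicle libraries the pairs of the 4 tested members had r of 0.558 to 0.933.

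Some members were also high in some of the libraries that stood apart. In Vehicle 1, libraries 2 and 3 listed Oas1a at 19.07 and 12.70 TPM, against 6.78 TPM in library 1 and 2.47 to 13.17 TPM in the libraries of Vehicle 2 and 3. The same libraries listed Oasl2 at 4.30 and 2.54 TPM, against 0.12 to 1.48 TPM in the other Vehicle libraries. Of the Vehicle libraries, library 2 of Vehicle 1 also held the highest Oas1g, at 5.78 TPM, and library 3 the highest Oasl, at 4.15 TPM. Without libraries 2 and 3 of Vehicle 1 all 4 members were still called, with log2 changes of 4.53 to 7.30 and limma adjusted p of 0.000729 to 0.00324. LPS 3 library 3 listed Oasl at 803.22 TPM, Oas1g at 103.11 TPM and Oasl2 at 88.78 TPM, the highest value of each. Oas1a was highest in LPS 2 library 2, at 280.66 TPM, against 259.27 TPM in LPS 3 library 3. Without that library all 4 members were called, with log2 changes of 4.28 to 7.19 and limma adjusted p of 0.000764 to 0.00538.

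Of the genes tied to 2-5A itself, Abce1, Pde12 and Akap7 are described here, and none of these was called higher or lower. Abce1, a ribosome recycling factor also tied to the 2-5A pathway as an inhibitor, stood at 41.7, 35.1 and 41.4 TPM in the Vehicle samples and at 32.0, 30.9 and 30.2 TPM in the LPS samples. It had a log2 change of -0.33 (95% interval -0.74 to 0.08, limma adjusted p = 0.174). Pde12, a phosphodiesterase that degrades 2-5A, had 0.08 (95% interval -0.39 to 0.55, limma adjusted p = 0.769). Akap7, which has an isoform able to cleave 2-5A, stood at 8.79 to 11.4 TPM in the Vehicle samples and 6.44 to 8.54 TPM in the LPS samples, with a log2 change of -0.46 (95% interval -0.94 to 0.02, limma adjusted p = 0.116).

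A list of other double-stranded RNA sensors and their partners rose beside the OAS genes. In it 7 of 8 genes were called higher, against 7.17% of all tested genes, and the median log2 change was 2.23. One of the 7, Zbp1, passed the filter only through the LPS group, with 0.193 TPM in the Vehicle mean and 3.00 TPM in the LPS mean. Eif2ak2, which encodes the kinase PKR, stood at 20.2, 16.9 and 23.9 TPM in the Vehicle samples and at 92.5, 175 and 128 TPM in the LPS samples. Its log2 change was 2.62 (SE 0.246, limma adjusted p = 0.00151). Ddx58, which encodes the RNA helicase RIG-I, went from 36.7 ± 3.04 to 280 ± 112 TPM (limma adjusted p = 0.00132). Ifih1 and Dhx58, the related helicases MDA5 and LGP2, rose by 4.04 and 4.91 on the log2 scale. Mavs, the mitochondrial adaptor of these helicases, was the exception, with a log2 change of -0.74 and a limma adjusted p of 0.0605. Cgas, a DNA sensor whose enzyme fold is related to that of OAS, rose by 2.88 on the log2 scale, while its partner Sting1 was not called.

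Genes of the interferon signal that induces OAS moved unevenly. Stat2 and Irf9, transcription factors that act at the ISRE, rose by 2.17 and 2.11 on the log2 scale, with limma adjusted p of 0.00225 and 0.00118. Irf7, the factor that amplifies type I interferon, stood at 15.5, 4.01 and 13.2 TPM in the Vehicle samples and at 451, 1086 and 1137 TPM in the LPS samples. Its log2 change was 6.36 (limma adjusted p = 0.000552). Irf1 rose by 5.52 on the log2 scale, from 110, 18.4 and 24.5 TPM to 658, 2561 and 2030 TPM. Of the receptor chains Ifnar2 and Ifngr2 rose, by 1.74 and 1.39, while Ifnar1, Ifngr1, the kinases Jak1 and Tyk2, and Irf3 were not called. The feedback inhibitors Usp18, which acts at Ifnar2, and Socs1 rose by 5.37 and 6.25 on the log2 scale.

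**Figure D4:**
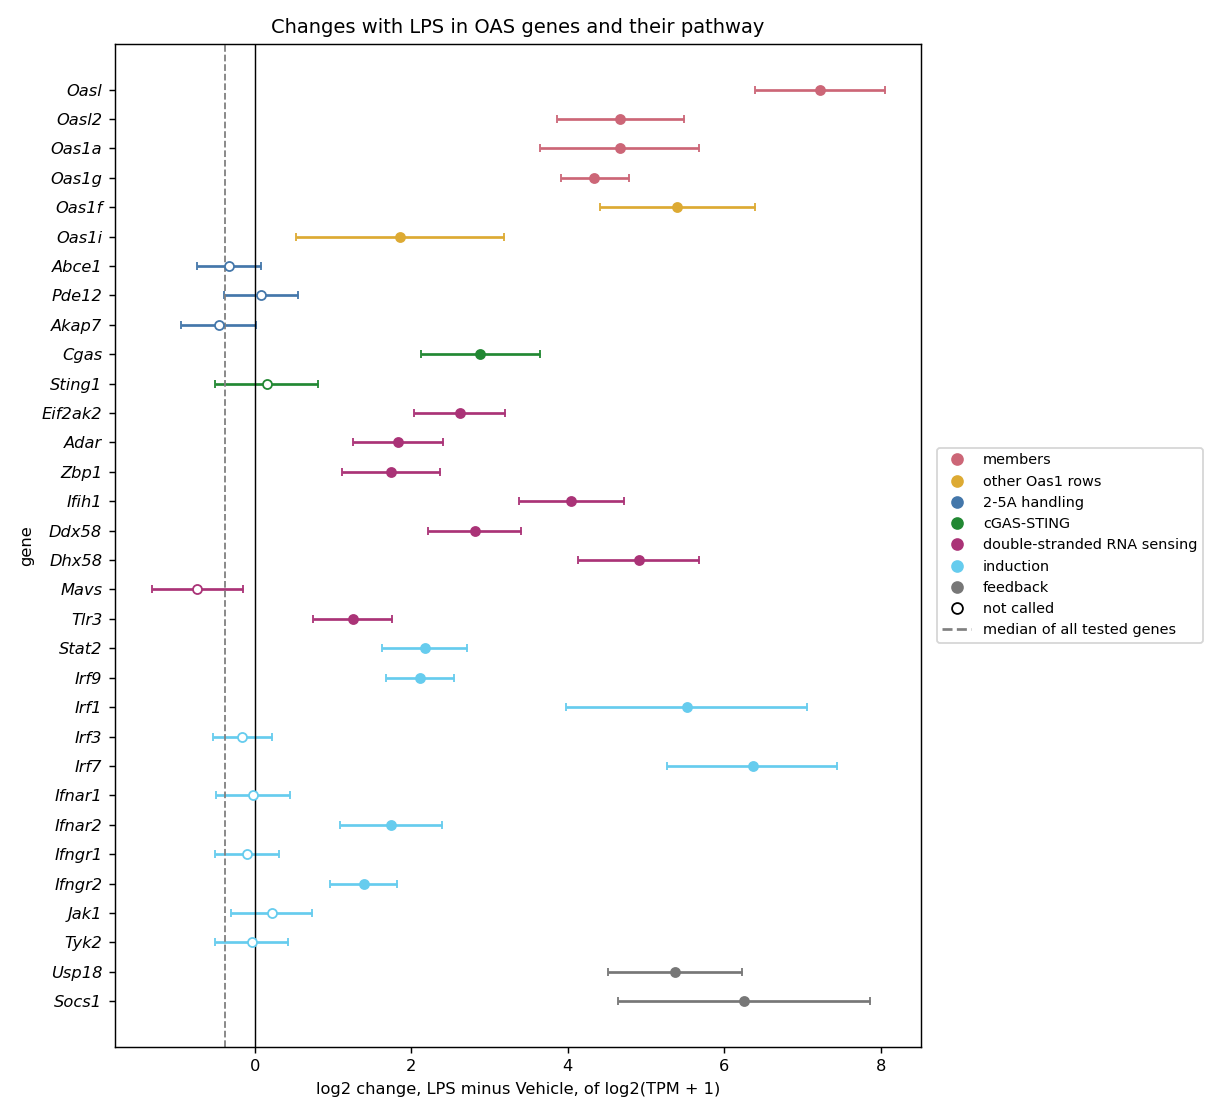
Log2 change with LPS of the tested Oas rows and of pathway genes, with 95% intervals from limma; filled points were called at an adjusted p under 0.05 and open points were not, colours mark the gene groups, and the dashed line is the median of all tested genes at -0.38. The Oas rows other than Oas1i lie between 4.34 and 7.22, and the 3 genes of 2-5A handling shown lie between -0.46 and 0.08.

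Over the whole list, 17 of the 28 pathway genes tested rose, none fell and 11 were not called, where 7.17% of all tested genes rose and 22.2% fell. The median log2 change was 1.74, against -0.38 for all tested genes, and both the count and the median include Zbp1. Ticam1 was not analysed here. LPS 1 was the lowest LPS sample for 15 of the 17 genes that rose, the position it also held for Oasl, Oas1a and Oasl2. Of all tested genes 25.9% were lowest in LPS 1, and the share among all genes that rose was not computed.

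Interferon ligand transcripts were scarce in the ducts. None of their 12 rows passed the filter, and 3 were listed at 0 in every library. The highest value was 2.11 TPM, for Ifng in an LPS library, and the highest in a Vehicle library was 1.26 TPM, for Ifna1. Ifnb1, which encodes interferon beta, was listed at 0 in all Vehicle libraries and reached 0.77 TPM in the LPS group. Depth cannot be read from TPM, so transcripts at such low levels could be missed.

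The tested genes most like the OAS pattern were found by Pearson's r with the mean log2(TPM + 1) of the 4 tested members, as a description. Over the 18 libraries these were Isg15 (0.998), Ube2l6 (0.997), Rtp4 (0.994), Irf7 (0.994) and Icam1 (0.993), over Vehicle and LPS libraries that lie far apart for all of them. Isg15 is a ubiquitin-like protein and Ube2l6 is the enzyme that conjugates it. Over the 9 LPS libraries alone the list was different, with Anxa3 at 0.986, Ifrd1 at 0.981, Plk3 and AC128859.1 at 0.972, and RT1-N3, a class I histocompatibility gene, at 0.968. No gene stood in both lists.

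In the RefSeq gene order on chromosome 12 the Oas genes form a block of 10 and a block of 2, the second being Oasl and Oasl2. The 3 protein-coding genes on each side of each block gave 12 neighbours, of which 11 had a row and 8 were tested. None of the 8 was called higher or lower, where 7.17% of all tested genes rose and 22.2% fell. Among the 3 genes before Oasl and Oasl2, Sppl3 had a log2 change of -0.72 (limma adjusted p = 0.0572). Before the larger block, the gene beside it, Rph3a, was listed at 0 in every library, and the next 2, Ptpn11 and Rpl6, had log2 changes of 0.09 and -0.03.

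Markers of other cells were measured beside the OAS genes. Of 12 tested macrophage and monocyte genes 5 rose, Adgre1, Cd14, Fcer1g, Tyrobp and C1qa, and Csf1r fell. Of all tested genes 7.17% rose and 22.2% fell. The macrophage and monocyte list summed to 276, 133 and 199 TPM in the Vehicle samples and to 474, 288 and 226 TPM in the LPS samples. Lyz2, which was not called, made up much of that sum, with 253, 112 and 91.8 TPM in the LPS samples. The markers differed in their order over the LPS samples: Lyz2, Fcer1g, Tyrobp and C1qa were highest in LPS 1, where Oasl was lowest, while Cd14 (21.0, 43.2 and 28.3 TPM) and Cd68 (4.66, 6.12 and 7.49 TPM) were lowest there. In LPS 2 the macrophage sum of the libraries was 191, 463 and 211 TPM, while Oasl stood at 600.65, 597.91 and 569.23 TPM. In LPS 3 the sum was 120, 174 and 385 TPM and Oasl 653.87, 662.39 and 803.22 TPM. The other tested members climbed in that order too, Oas1a at 173.66, 228.38 and 259.27 TPM and Oas1g at 57.99, 81.31 and 103.11 TPM. Oasl2 stood at 53.76, 64.75 and 88.78 TPM there. In LPS 2 only Oas1a followed the library order of the sum, at 259.29, 280.66 and 263.68 TPM. In LPS 1 only Oas1g did, at 87.39, 94.11 and 75.01 TPM beside sums of 488, 559 and 376 TPM. The neutrophil list summed to at most 0.663 TPM in a Vehicle sample and to 5.85, 2.12 and 79.2 TPM in the LPS samples, with S100a8 and S100a9 called higher. Both entered the test only through the LPS group, where LPS 3 library 3 listed them at 86.89 and 128.35 TPM, and S100a8 was listed at 0 in all Vehicle libraries. The 3 markers of plasmacytoid dendritic cells summed to 7.58 to 9.55 TPM in the Vehicle samples and 19.9 to 39.8 TPM in the LPS samples. Of these Irf8, itself an interferon-response factor, rose from 2.06 ± 0.339 to 23.3 ± 11.8 TPM (limma adjusted p = 0.00199), Tcf4 was not called, and Siglech stayed at or below 0.0933 TPM in every sample. Of 6 tested endothelium genes Esam rose, Egfl7 fell and 4 were not called. The list summed to 95.3 and 73.6 TPM in Vehicle 1 and 3 and was lowest in Vehicle 2, as the members were. In the LPS samples it summed to 80.5, 33.1 and 87.8 TPM, lowest in LPS 2, where Oas1a was highest. Over the libraries of LPS 3 it climbed to 161 TPM in library 3, and the 4 tested members also climbed. In LPS 1 and LPS 2 no tested member followed the library order of the endothelium sum. The part of these other cells in the level of the OAS genes was not tested.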

How the data were processed

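The deposited table gives TPM (length-corrected transcript shares that sum to the same total in each library) per gene and library, computed by the authors. The submitters' processing notes name STAR 2.7.9a, RSEM 1.3.3 and the build Rnor_6.0, without their roles. Per the labels' protocols, cDNA was made from polyA RNA and amplified. TPM keeps no depth, so the depth per library is unknown.

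Log2(TPM + 1) was averaged over the 3 libraries of a numbered sample. Genes were kept where the 18 libraries averaged 1 TPM or more, and fitted with limma 3.58.1 in R 4.3.3 (variance trend, two-sided), blocking on the sample number, since the series text describes pairs. This left 2 residual degrees of freedom, with a prior of 4.97. Benjamini-Hochberg adjustment ran over all 12393 genes, and a gene was called at an adjusted p under 0.05. Deviations of same-numbered samples from their group means correlated at 0.0622, -0.0175 and 0.0686 over genes, and it is the series text that gives the pairing. The procedure was tested on simulated data.

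All members and Oas rows are named. Of the pathway list, Abce1, Pde12, Akap7, Eif2ak2, Stat2, Irf9, Irf7 and the 4 others with the largest mean TPM (Irf1, Socs1, Ddx58 and Usp18) were named by rule, and further list genes after their values were seen. The members, lists and rules were chosen with earlier results of these data known. Alternatives changed the block, summary over libraries, pseudocount, filter, scaling, variance model and replicates. Promoters came from RefSeq (GRCr8), which also gave the gene order. Oas1b expression and protein sequences were not analysed here, and some genes that the counts include are not reported here by name.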

Additional observations from a re-analysis of the deposited data

How the results depend on the processing

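Of 17 alternatives, 14 called all 4 tested members, and none reversed a direction. Without the replicate block the counts stayed at 4 members and 17 pathway genes, with the same log2 changes of 4.34 to 7.22. With the median over libraries, with no filter on low values and without replicate 3, no member and no pathway gene was called by limma, although all 4 members had an unadjusted p under 0.05; no gene of the table was called there, and the smallest adjusted p of any gene was 0.0545, 0.209 and 0.196. The median gave 4.69 for Oas1a, 4.37 for Oas1g, 7.12 for Oasl and 4.64 for Oasl2 (limma adjusted p 0.0545 to 0.0656). With no filter the values stayed at 4.66, 4.34, 7.22 and 4.67 (0.209 to 0.263). Leaving out each pair of samples in turn gave 3.95 to 5.19 for Oas1a, 4.29 to 4.37 for Oas1g, 6.84 to 7.79 for Oasl and 4.26 to 5.17 for Oasl2, with 0 to 4 members and 0 to 17 pathway genes called; the cause of the lost calls was not tested. Over all alternatives Oasl ranged from 6.08 to 7.79 and Oasl2 from 3.21 to 5.73. Leaving out Vehicle 1 libraries 2 and 3, or LPS 3 library 3, was chosen after seeing the data. Vehicle 1 library 1 and LPS 2 library 1, which also stood apart in markers, were not left out on their own.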
